A study of Mus musculus with 6 samples.

Results

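The genes of the glutathione and thioredoxin systems were followed in lung cells prepared as mouse AT2 cells, the type II cells of the alveolus, which make surfactant. They were taken by symbol: the glutathione transferases (Gst and Mgst), glutathione peroxidases (Gpx), peroxiredoxins (Prdx) and thioredoxin reductases (Txnrd), plus Gclc, Gclm, Gss, Gsr, Txn1, Txn2, Nqo1, Hmox1, Srxn1, Cat, Sod1, Sod2 and Sod3. This gave 55 genes of the 52550 in the count table. RNA was sequenced in 3 libraries labelled Grp78KO and 3 Control libraries. All mice were C57BL/6 and carried one Sftpc allele with an inducible Cre recombinase (Sftpc+/creERT2), active where surfactant protein C is made, and floxed alleles of Grp78 (Grp78f/f), which encodes a major chaperone of the endoplasmic reticulum (ER). The libraries labelled Grp78KO came from mice given tamoxifen (Tmx), and the Control libraries from mice labelled as not given it, so tamoxifen and the deletion cannot be told apart. All 6 samples, however, carry a label that counts 10 days after Tmx, at odds with what the genotype label says of Control. Cells were CD45-negative and EPCAM-positive after magnetic sorting of a dispase digest. RNA of club cell, ciliated and other markers was present as well, as given below. All values are therefore those of the whole preparation and not of AT2 cells alone. The labels do not tie replicates to separate mice, so each p-value rests on the spread between libraries, which may be technical.

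Glutathione is a small cysteine-containing peptide that cells build in a pair of steps, the first by a ligase with a catalytic subunit (Gclc) and a modifier subunit (Gclm), the second by Gss. Peroxidases spend it on peroxides, transferases attach it to reactive compounds, and Gsr returns the oxidised form to the reduced one with NADPH. The thioredoxin system runs beside it: thioredoxins reduce peroxiredoxins and other proteins, and selenium-containing reductases recharge the thioredoxins, also with NADPH. Superoxide dismutases and catalase handle superoxide and hydrogen peroxide without either carrier. Several of these genes are textbook targets of the transcription factor NRF2, which the adaptor KEAP1 holds in check. The alveolar surface meets high oxygen, and AT2 cells are known for abundant peroxiredoxin and glutathione enzymes.

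Library totals ranged from 110770711 to 149520306 counts. Hspa5, the gene for Grp78 (chromosome 2, 34771970 to 34777547, plus strand, mm10), had 9262, 9180 and 3809 CPM in libraries 1, 2 and 3 labelled Grp78KO, against 1355, 1289 and 925 CPM in Controls 1, 2 and 3. CPM are counts per 1e6 counts, scaled between libraries by TMM (trimmed mean of M-values). Gene-level counts do not show which allele they came from, and the level was higher where the label names a loss (log2 fold 2.64, SE 0.36, edgeR adjusted p = 0.00208). For that reason the group is called by its label throughout. The 10 AT2 markers were all present and all lower, with a summed level of 42001 to 52996 CPM in libraries labelled Grp78KO and 107970 to 124640 CPM in Control. In such bulk samples, fewer cells of a type and less RNA per cell cannot be told apart. The list of 12 fibroblast and smooth muscle markers had 11 higher, at 1223 to 1352 CPM summed in libraries labelled Grp78KO and 230 to 586 CPM in Control, and all 5 mesothelial markers were higher, at 181 to 215 and 103 to 115 CPM. Club cell markers summed to 36337 to 40483 and 37285 to 65436 CPM, with 1 of 8 lower, and ciliated markers to 1757 to 1998 and 1333 to 1824 CPM, with 4 of 8 higher. Of 8 type I cell markers 1 was higher and 4 were lower, of 8 endothelial markers 1 was higher, of 11 leukocyte markers 2 were higher, and of 7 erythroid markers 1 was lower. Leukocyte markers summed to 14.4 and 14.8 CPM in libraries 1 and 2 labelled Grp78KO and 104 CPM in library 3, against 10.0 to 15.3 CPM in Control. No marker in these lists was at 0 in all 6 libraries.

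Of the 55 genes, 52 had enough counts to test, and they moved in both directions. In libraries labelled Grp78KO 13 were higher, which is 25% of those tested against 18% of all 18849 genes tested. Another 7 were lower, 13.5% against 18.8% of all genes, and 32 were not called. A call means an adjusted p under 0.05 in edgeR's quasi-likelihood test with Benjamini-Hochberg adjustment over all genes tested. Together 38.5% of the tested members were called against 36.8% of all genes, so the share of called genes was near the background. All 3 libraries labelled Grp78KO lay above all 3 Controls for 15 members, 28.8% against 25% of all genes, and below them for 8, 15.4% against 26.6%. The median log2 fold was 0.18, beside 0.02 over all genes. The split between higher and lower depends on scaling: with library size alone 29 members were called higher and 4 lower, and the median over all genes was then 0.27. Summed over the 55 genes, the TMM-scaled level was 7245 ± 662 CPM in libraries labelled Grp78KO and 7699 ± 1113 CPM in Control (SD, n = 3 each), whereas their share of unscaled counts was 0.790% ± 0.0412 and 0.701% ± 0.0629. The pooled level therefore has no direction that holds under both scalings.

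**Figure D1:**
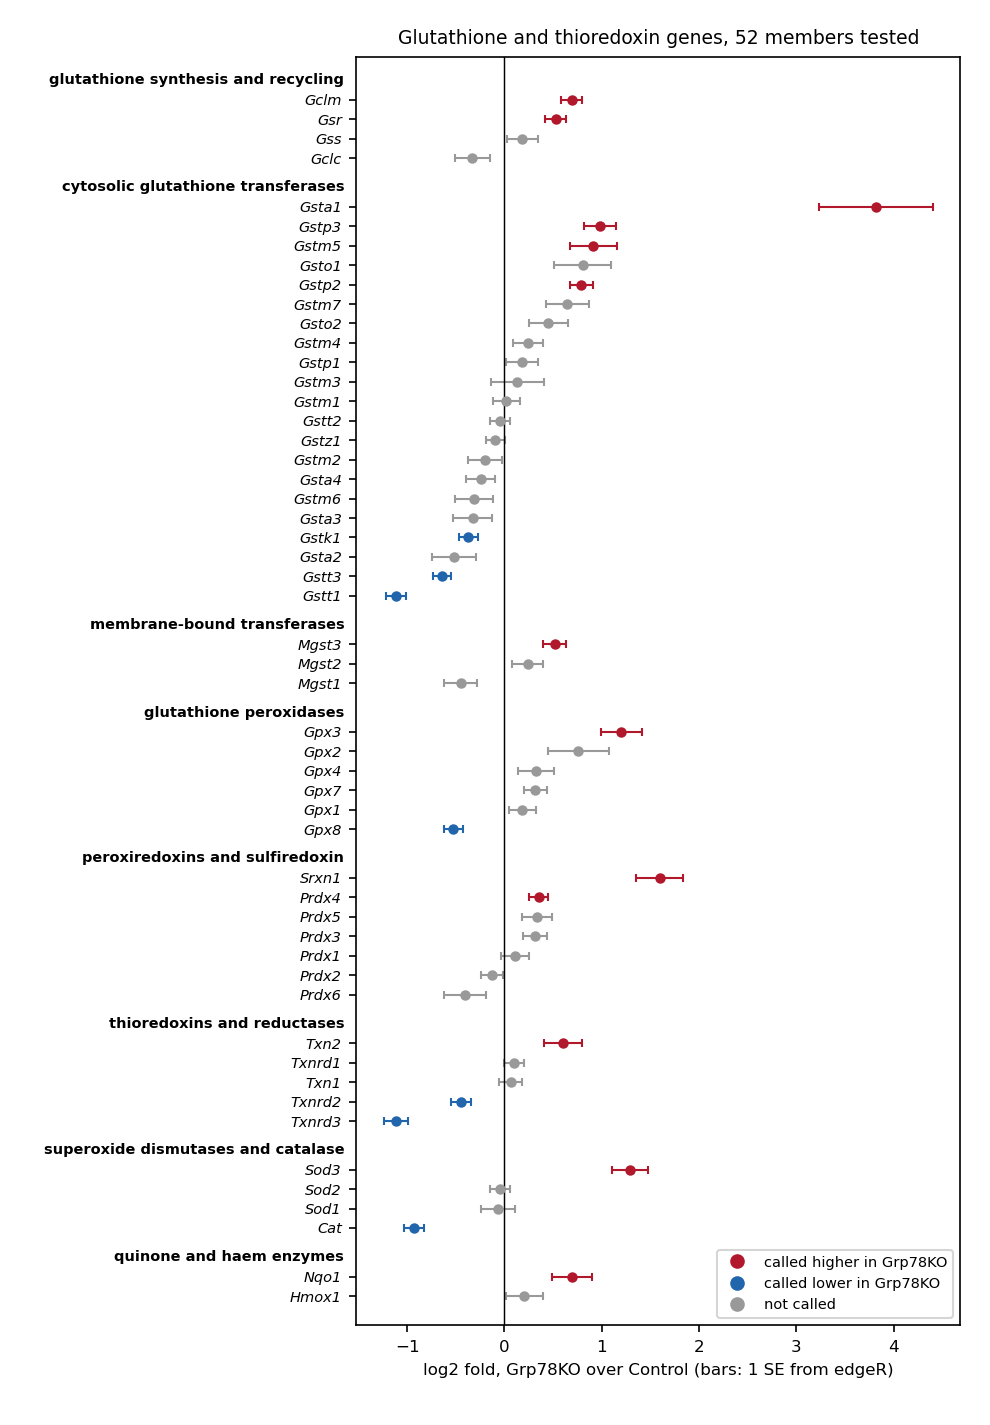
Log2 fold of each of the 52 tested genes, libraries labelled Grp78KO over Control, with bars of 1 SE, grouped by role and marked by call. Gsta1 lies farthest to the right at 3.82 and Txnrd3 and Gstt1 farthest to the left at about the same place, -1.12 and -1.11.

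Of the 20 called members, 12 kept their call under all 16 alternative settings of scaling, filter, tool, pairing and left-out libraries. Those higher were Gsta1, Srxn1, Sod3, Gpx3, Gstp3, Gstp2, Gclm and Gsr, and those lower were Gstt1, Txnrd3, Cat and Gstt3. For another 7 (Gstk1, Gstm5, Mgst3, Nqo1, Prdx4, Txn2 and Txnrd2) the call ended when a single library was left out. Gpx8 lost its call only with library size alone as the scaling. A fit with the replicate number as a block called 21 members higher and 11 lower. Deviations from the group means correlated positively between same-numbered libraries, but also between libraries numbered 1 and 2 of opposite groups (0.171 and 0.154). Whether the numbers mark pairs is therefore not established, and calls that only the block gives depend on it.

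**Figure D2:**
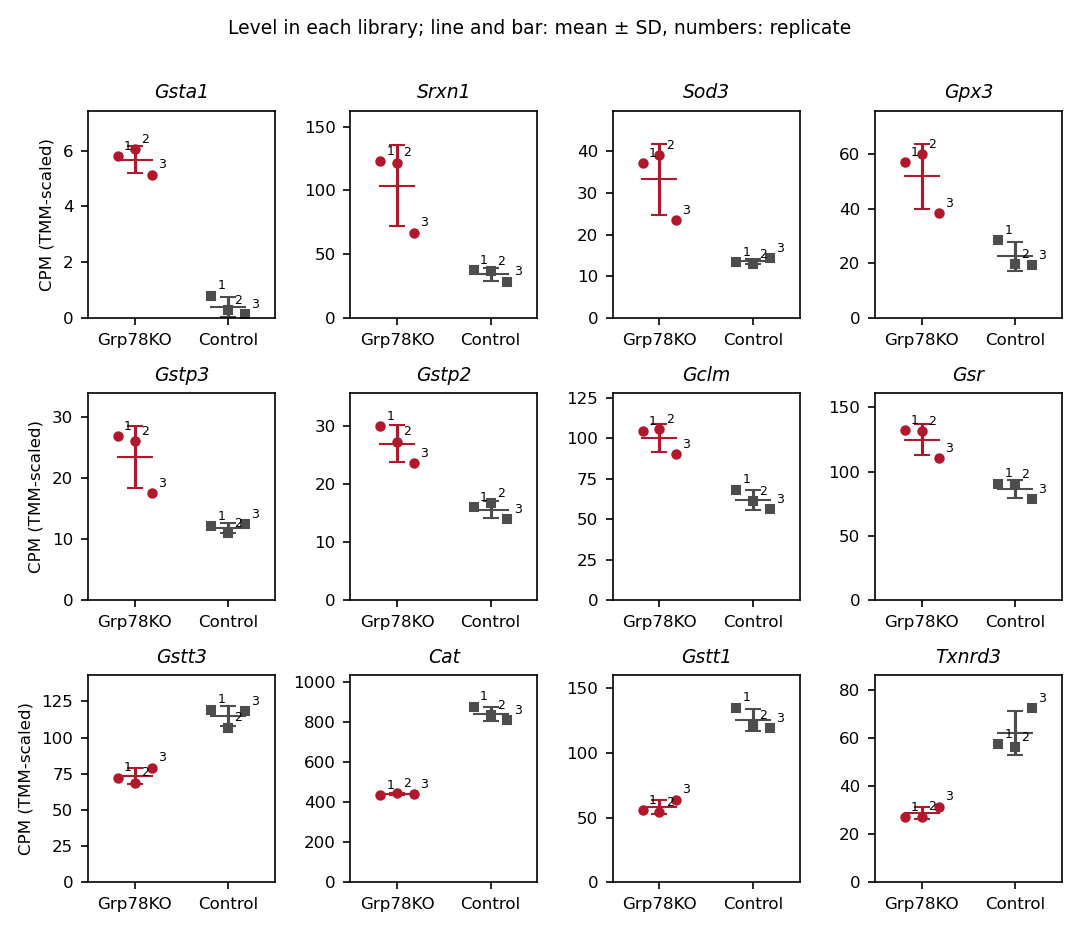
CPM of the 12 members whose call held under all 16 settings, each library as a point, libraries labelled Grp78KO left of Control, with mean and SD. In every panel the 3 libraries labelled Grp78KO stand clear of the 3 Controls, and for Srxn1 library 3 labelled Grp78KO, at 67.0 CPM, lies well under the other two.

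Glutathione synthesis and recycling showed a rise of the modifier subunit and of the reductase but not of the catalytic subunit. Gclm (chromosome 3, 122245557 to 122270732, plus strand), which raises the efficiency of the ligase, had 105, 106 and 90.5 CPM in libraries 1, 2 and 3 labelled Grp78KO, against 68.4, 61.4 and 56.1 CPM in Controls 1, 2 and 3. The groups did not overlap, and Gclm rose 1.62-fold (log2 fold 0.69, SE 0.11, adjusted p = 0.00326). Gsr (chromosome 8, 33652523 to 33698163, plus strand), which regenerates reduced glutathione, had 132, 132 and 111 CPM against 90.7, 90.5 and 78.5 CPM in Control. It rose 1.44-fold, again with no overlap (log2 fold 0.53, SE 0.11, adjusted p = 0.00911). Gclc, the catalytic subunit, stood at 504, 506 and 625 CPM in libraries labelled Grp78KO and at 754, 774 and 529 CPM in Control, and was not called (log2 fold -0.33, SE 0.18, adjusted p = 0.179). Control 3 was the lowest Control, inside the range of the libraries labelled Grp78KO, and without it Gclc was called lower (log2 fold -0.49, adjusted p = 0.0368). Gss, the synthetase of the last step, had 47.7, 48.6 and 35.0 CPM against 41.5, 42.1 and 32.1 CPM in Control, overlapping (log2 fold 0.18, adjusted p = 0.397). With the replicate block Gss was called at the same fold (0.18, adjusted p = 0.0499).

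The 22 Gst genes are grouped here as cytosolic transferases, although the kappa enzyme Gstk1 is of mitochondria and peroxisomes. Of these, 21 were tested: 4 rose, 3 fell and 14 were not called, with a median log2 fold of 0.02. Over all genes 18% rose and 18.8% fell, and counts by family, here and below, are read beside those shares. The genes that rose were Gsta1, Gstm5, Gstp2 and Gstp3, and those that fell were Gstt1, Gstt3 and Gstk1. Other alpha, mu, pi and theta genes were not called. The largest rise was that of Gsta1 (chromosome 9, 78230656 to 78242684, plus strand), an alpha-class enzyme known for conjugating lipid peroxidation products, at 5.82, 6.07 and 5.14 CPM in libraries labelled Grp78KO. In Controls 1, 2 and 3 it had 0.807, 0.281 and 0.130 CPM. The Control values lay far below the others but differed among themselves, and the rise was 14.1-fold (log2 fold 3.82, SE 0.59, adjusted p = 0.00355). Control 1, the highest Control, moved the size of the rise: without it the log2 fold was 4.77 and the call held. The call rests on 791, 722 and 726 counts against 92, 38 and 17 counts.

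Gsta1 cannot be read alone, because its coding sequence is 97.5% identical to that of Gsta2 (655 of 672 aligned bases), and how reads shared by the copies were counted is not given. Gsta2 had 5.83, 5.25 and 3.66 CPM in libraries labelled Grp78KO and 7.93, 7.88 and 5.28 CPM in Control, overlapping, and was not called (log2 fold -0.52, SE 0.22, adjusted p = 0.107), though it was called lower with the replicate block (adjusted p = 0.0132). With both copies summed, an alternative chosen after seeing the data, the pair had 11.7, 11.3 and 8.81 CPM against 8.74, 8.16 and 5.41 CPM in Control. The libraries labelled Grp78KO still lay above all Controls, but the summed fold was 0.51 on the log2 scale and was not called (SE 0.20, adjusted p = 0.0794). The split between the copies is uncertain for this reason. The alpha genes of higher level moved less: Gsta3 had 113, 108 and 83.9 CPM against 151, 141 and 90.3 CPM in Control (log2 fold -0.33, adjusted p = 0.240), and Gsta4, which takes lipid-derived aldehydes, 122, 114 and 106 CPM against 157, 141 and 107 CPM (log2 fold -0.24, adjusted p = 0.230). Neither was called in the fit on all libraries, and both were called lower without Control 3 (log2 folds -0.53 and -0.39, adjusted p = 0.0387 and 0.0353). With the replicate block Gsta3 was called lower too (log2 fold -0.30, adjusted p = 0.0346). In Control 3 the club cell marker sum was also the lowest of the Controls, 37285 CPM against 65436 and 61970 CPM in Controls 1 and 2. The part of club cell RNA in these values was not tested.

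In the theta class 2 of the 3 tested genes fell. Gstt1 (chromosome 10, 75783813 to 75798584, minus strand), which acts on small halogenated compounds, had 55.7, 54.1 and 64.1 CPM in libraries labelled Grp78KO, against 135, 121 and 120 CPM in Control. The highest library labelled Grp78KO lay far below the lowest Control, and the log2 fold was -1.11 (SE 0.10, adjusted p = 0.000644). Its neighbour Gstt3 (75774115 to 75781414) had 72.3, 68.8 and 79.2 CPM against 119, 107 and 118 CPM in Control, with no overlap (log2 fold -0.64, SE 0.09, adjusted p = 0.00258). Gstt2, in the same cluster on chromosome 10 at 75831114 to 75837424, did not move with them, at 21.7, 20.3 and 21.7 CPM against 24.9, 21.0 and 20.1 CPM (log2 fold -0.05, SE 0.10, adjusted p = 0.741). Gstt4, between Gstt1 and Gstt2, had 1, 6 and 2 counts in libraries labelled Grp78KO and 2, 4 and 8 counts in Control, too few to test. A count of 3 corresponds to 0.0213 to 0.0263 CPM in these libraries. The coding sequences of Gstt1 and Gstt3 are 75.5% identical, far below the alpha pair.

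In the pi class, all within chromosome 19 from 4035407 to 4059569, the rises came from the copies of lower level per length. Gstp2 had 30.0, 27.3 and 23.6 CPM in libraries labelled Grp78KO and 16.1, 16.7 and 14.0 CPM in Control (log2 fold 0.79, SE 0.12, adjusted p = 0.00306). Gstp3 had 26.8, 26.0 and 17.6 CPM against 12.1, 10.9 and 12.5 CPM (log2 fold 0.99, SE 0.17, adjusted p = 0.00441). Neither gene's groups overlapped. Gstp1, the pi enzyme that makes most of the class, had 233, 225 and 159 CPM against 202, 185 and 158 CPM, overlapping and not called (log2 fold 0.18, SE 0.17, adjusted p = 0.424). It was called higher without both libraries numbered 3 (log2 fold 0.25, adjusted p = 0.0078), where 56% of all genes tested were called. Gstp1 and Gstp2 share 98.1% of their coding bases (621 of 633), and summed they gave a log2 fold of 0.24 that was not called (SE 0.16, adjusted p = 0.280), so the rise of Gstp2 is uncertain in the same way as that of Gsta1. Gstp3 differs more, at 73.0% identity to Gstp2.

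The mu class lies in one cluster on chromosome 3 from 107895821 to 108044894, and of its 7 genes only Gstm5 was called. Gstm5 had 3.71, 2.98 and 2.31 CPM in libraries labelled Grp78KO and 1.68, 1.86 and 1.22 CPM in Control (log2 fold 0.92, SE 0.25, adjusted p = 0.0238). The groups did not overlap, but the call ended when any one library other than library 3 labelled Grp78KO was left out, with adjusted p of up to 0.0924. Gstm1, the most abundant cytosolic transferase per length in both groups, had 325, 326 and 292 CPM against 349, 327 and 256 CPM in Control (log2 fold 0.02, SE 0.14, adjusted p = 0.925). Gstm7 had 5.01, 3.97 and 3.78 CPM against 3.45, 2.66 and 2.04 CPM, separate but just short of the threshold (log2 fold 0.65, SE 0.22, adjusted p = 0.0547). It passed with the replicate block (log2 fold 0.67, adjusted p = 0.0167) and without Control 1 or without library 3 labelled Grp78KO (adjusted p = 0.0371 and 0.0430). Gstm7 also passed with DESeq2 (adjusted p = 0.0161), limma-voom (0.0433), upper-quartile factors (0.0369) and library size alone (0.0110). Gstm2, Gstm3, Gstm4 and Gstm6 had log2 folds of -0.20, 0.13, 0.24 and -0.31 with adjusted p of 0.398, 0.729, 0.259 and 0.249. Gstm4 was called higher without library 3 labelled Grp78KO (log2 fold 0.38, adjusted p = 0.0354). Without both libraries numbered 3, Gstm2 and Gstm6 were called lower (log2 folds -0.27 and -0.46, adjusted p = 0.0063 and 0.0197). In that setting 56% of all genes tested were called.

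The remaining classes of the Gst genes gave a single call. Gstk1, a kappa enzyme of mitochondria and peroxisomes, had 44.7, 45.5 and 40.4 CPM in libraries labelled Grp78KO and 61.4, 56.5 and 50.8 CPM in Control, and fell (log2 fold -0.37, SE 0.10, adjusted p = 0.0239). That call ended without Control 1, Control 2, library 1 or library 2 labelled Grp78KO (adjusted p = 0.0646 to 0.0826) and with library size alone (log2 fold -0.11, adjusted p = 0.285). Gsto1, an omega enzyme that removes glutathione from proteins and reduces dehydroascorbate, had 311, 292 and 181 CPM against 184, 171 and 94.7 CPM in Control. Library 3 was the lowest of each group, so the groups overlapped only through library 3 labelled Grp78KO and Control 1, and the gene was not called (log2 fold 0.80, SE 0.29, adjusted p = 0.0640). With the replicate block Gsto1 was called higher (log2 fold 0.82, adjusted p = 0.00149), and likewise without library 3 labelled Grp78KO (log2 fold 1.01, adjusted p = 0.0183). So it was with DESeq2 (adjusted p = 0.00816), upper-quartile factors (0.0444), library size alone (0.0148) and a filter at 5 CPM (0.041). Gsto2, next to Gsto1, had 2.99, 2.74 and 2.99 CPM against 2.55, 1.62 and 2.21 CPM (log2 fold 0.45, SE 0.20, adjusted p = 0.116). Gstz1, the zeta enzyme of tyrosine breakdown, had 101, 94.3 and 97.4 CPM against 115, 100 and 96.5 CPM (log2 fold -0.09, adjusted p = 0.474).

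The shares of single transferases were compared per length. On the scale of CPM per kilobase of exon, Gstm1 held 25.9% ± 1.66 of the summed level of the 22 cytosolic transferases in libraries labelled Grp78KO and 25.7% ± 0.331 in Control (SD, n = 3 each). Gsto1 held 15.4% ± 2.55 and 8.87% ± 1.73, whereas Gstt1 held 4.67% ± 1.04 and 10.1% ± 1.19. Gsta1, for all its fold, held 0.720% ± 0.0399 and 0.0486% ± 0.0376. Shares within a family cannot say which gene changed, and no test was run on them.

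**Figure D3:**
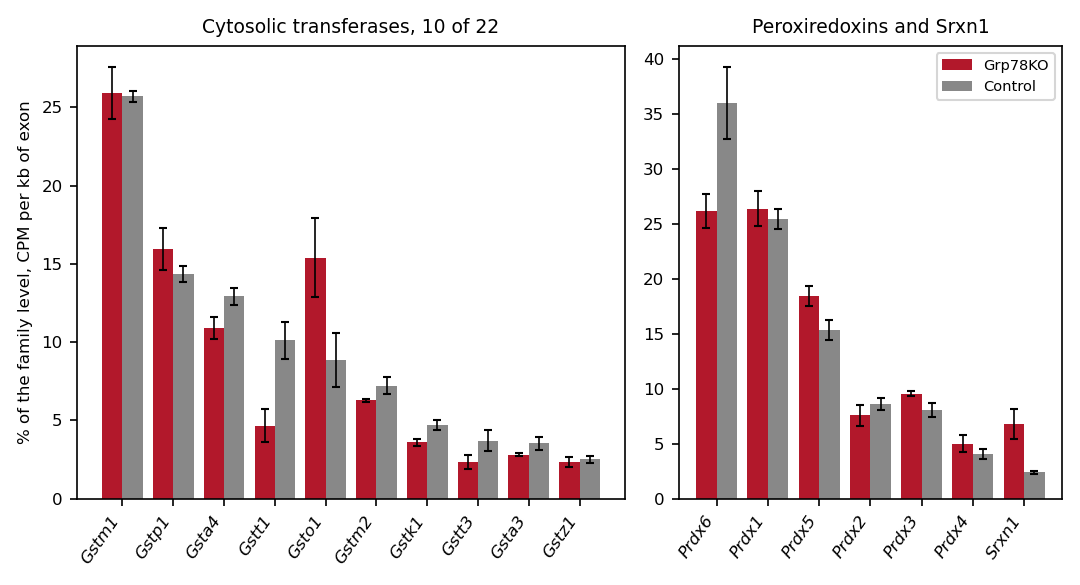
Share of each gene in the summed CPM per kilobase of its family, mean and SD of 3 libraries, libraries labelled Grp78KO left of Control; the first panel shows 10 of the 22 cytosolic transferases and the second the peroxiredoxins with Srxn1. Gsto1 and Srxn1 take a larger share in libraries labelled Grp78KO (15.4% and 6.78%) than in Control (8.87% and 2.39%), and Gstt1 and Prdx6 a smaller one.

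Of the membrane-bound transferases 1 of 3 was called. Mgst3 (chromosome 1, 167371966 to 167393841, minus strand), which has transferase and peroxidase activity, had 42.0, 38.6 and 37.0 CPM in libraries labelled Grp78KO and 31.9, 26.3 and 24.0 CPM in Control. All 3 libraries labelled Grp78KO were higher (log2 fold 0.52, SE 0.12, adjusted p = 0.0148), but the call ended without Control 2 or without library 1 or 2 labelled Grp78KO (adjusted p = 0.0678, 0.0555 and 0.0503). Mgst1, a general detoxifying enzyme of ER and mitochondrial membranes, had 427, 424 and 386 CPM against 678, 573 and 440 CPM in Control. Its groups were separate with a wide Control spread, and it was not called (log2 fold -0.45, SE 0.17, adjusted p = 0.0686). Mgst1 was called lower without Control 3 (log2 fold -0.60, adjusted p = 0.0160) and with the replicate block (log2 fold -0.43, adjusted p = 0.0288). DESeq2 called it lower as well (log2 fold -0.44, adjusted p = 0.024). Mgst2, which can form cysteinyl leukotrienes, had 13.4, 13.8 and 12.4 CPM against 13.1, 11.9 and 8.54 CPM (log2 fold 0.24, adjusted p = 0.272).

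Among the peroxidases that spend glutathione, the selenium-containing ones can be read from their coding sequence: selenocysteine is encoded by a TGA codon, elsewhere a stop. An in-frame TGA was found in 7 of the 55 coding sequences, those of Gpx1 to Gpx4 and Txnrd1 to Txnrd3. The stretches around it, from the GENCODE M21 transcripts, are shown because they mark the catalytic residue that separates these enzymes from their cysteine-based relatives, with the TGA in capitals.
Gpx1: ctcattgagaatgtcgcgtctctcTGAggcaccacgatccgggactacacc
Gpx2: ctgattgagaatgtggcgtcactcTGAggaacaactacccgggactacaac
Gpx3: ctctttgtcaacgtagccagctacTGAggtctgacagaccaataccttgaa
Gpx4: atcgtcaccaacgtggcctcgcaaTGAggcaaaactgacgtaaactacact
Txnrd1: ggagacatcctccagtctggctgcTGAggt
Txnrd2: ctggagcctactgtgactggttgcTGAggc
Txnrd3: ctggacattactcagaaaggctgcTGAggc
Codons are numbered in the longest coding sequence of each gene, and positions can differ in its other forms. In the peroxidases the codon lies inside the chain, at codon 47 of 201 in Gpx1, 40 of 190 in Gpx2, 73 of 226 in Gpx3 and 129 of 253 in Gpx4. In the reductases the TGA is the last codon but one, 612 of 613 in Txnrd1, 526 of 527 in Txnrd2 and 614 of 615 in Txnrd3. Of these 7 genes 1 rose (Gpx3) and 2 fell (Txnrd2 and Txnrd3). No in-frame TGA was found in Gpx7 or Gpx8.

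Gpx3 (chromosome 11, 54902453 to 54910377, plus strand), the secreted peroxidase of plasma and lining fluid, had 57.0, 60.0 and 38.3 CPM in libraries labelled Grp78KO and 28.5, 19.7 and 19.3 CPM in Control. The groups were separate and Gpx3 rose 2.30-fold (log2 fold 1.20, SE 0.21, adjusted p = 0.00530). Gpx8 (chromosome 13, 113042753 to 113046410, minus strand), a membrane peroxidase of the ER, moved the other way, at 65.3, 61.5 and 66.6 CPM against 103, 89.5 and 85.2 CPM in Control (log2 fold -0.52, SE 0.10, adjusted p = 0.00644). The fall of Gpx8 was not called with library size alone (log2 fold -0.26, adjusted p = 0.0534). Gpx7, the other ER peroxidase, which passes oxidising equivalents to disulfide isomerases, had 14.1, 13.2 and 14.0 CPM against 10.3, 9.90 and 12.9 CPM, separate but not called (log2 fold 0.32, SE 0.12, adjusted p = 0.0741). It was called higher with the replicate block (log2 fold 0.33, adjusted p = 0.0463) and without Control 3 (log2 fold 0.44, adjusted p = 0.0160).

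The most abundant peroxidases per length, Gpx4 and Gpx1, were not called. Gpx4, which reduces peroxides within membrane phospholipids, had 576, 520 and 368 CPM in libraries labelled Grp78KO and 449, 377 and 342 CPM in Control (log2 fold 0.33, SE 0.19, adjusted p = 0.208). Gpx1, the general cytosolic peroxidase, had 349, 322 and 370 CPM against 355, 301 and 261 CPM (log2 fold 0.18, SE 0.14, adjusted p = 0.325). Gpx2, the epithelial form, had 114, 103 and 56.0 CPM against 67.4, 57.2 and 36.6 CPM (log2 fold 0.76, SE 0.31, adjusted p = 0.0948). In Gpx2 and Gpx4 the lowest value of each group was that of library 3, and leaving out library 3 labelled Grp78KO brought both past the threshold (log2 folds 1.01 and 0.49, adjusted p = 0.0117 and 0.0226), as did the replicate block (log2 folds 0.74 and 0.31, adjusted p = 0.00176 and 0.0472). With library size alone Gpx2 and Gpx4 were also called higher (adjusted p = 0.0214 and 0.0218), and with DESeq2 Gpx2 was (adjusted p = 0.0182). Gpx5, an epididymal form, had 0 counts in all 6 libraries, and Gpx6 had 0, 2 and 9 counts against 0, 4 and 0, so neither was tested.

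Srxn1 had the largest log2 fold among the genes of the thioredoxin arm. Srxn1 (chromosome 2, 152105516 to 152111376, plus strand) encodes sulfiredoxin, which repairs over-oxidised peroxiredoxins, and had 123, 122 and 67.0 CPM in libraries labelled Grp78KO, against 37.8, 36.8 and 28.5 CPM in Control. All libraries labelled Grp78KO were higher, library 3 least so, and the rise was 3.02-fold (log2 fold 1.60, SE 0.24, adjusted p = 0.00304). Of the 6 peroxiredoxins that it could serve or that accompany it, 1 was called. Prdx4 (chromosome X, 155323918 to 155340754, minus strand), the peroxiredoxin of the ER, had 56.7, 53.4 and 56.8 CPM against 49.3, 41.3 and 40.2 CPM in Control, a 1.28-fold rise (log2 fold 0.35, SE 0.10, adjusted p = 0.0300). The Prdx4 call ended without Control 2, Control 3, or library 1 or 2 labelled Grp78KO (adjusted p = 0.123, 0.0754, 0.0934 and 0.0741).

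Prdx6, a lung-abundant peroxiredoxin that also has phospholipase activity and takes part in surfactant lipid turnover, was among the abundant members per length, with 141 ± 24.4 CPM per kilobase in libraries labelled Grp78KO and 186 ± 44.0 in Control (SD, n = 3 each). By library it had 746, 739 and 540 CPM in libraries labelled Grp78KO and 1045, 982 and 651 CPM in Control, overlapping through Control 3 (log2 fold -0.40, SE 0.21, adjusted p = 0.174). Without Control 3 (log2 fold -0.59, adjusted p = 0.0481) and with the replicate block (log2 fold -0.39, adjusted p = 0.0162) Prdx6 was called lower. Its share of the peroxiredoxin and Srxn1 level per length was 26.2% ± 1.56 and 36% ± 3.28 (SD, n = 3 each). Prdx1, the main cytosolic form, had 452, 435 and 393 CPM against 466, 390 and 332 CPM (log2 fold 0.11, adjusted p = 0.593), and Prdx2 had 129, 117 and 121 CPM against 152, 132 and 118 CPM (log2 fold -0.13, adjusted p = 0.391). The mitochondrial Prdx3 had 80.6, 80.2 and 65.4 CPM against 67.7, 59.3 and 54.6 CPM (log2 fold 0.32, adjusted p = 0.0743). Prdx5, of mitochondria, peroxisomes and cytosol, had 244, 215 and 175 CPM against 191, 165 and 147 CPM (log2 fold 0.34, adjusted p = 0.119). Both Prdx3 and Prdx5 overlapped only through library 3 labelled Grp78KO, and both were called higher without it (log2 folds 0.41 and 0.45, adjusted p = 0.0170 and 0.0259) and with the replicate block (log2 folds 0.31 and 0.33, adjusted p = 0.0143 and 0.0123). With library size alone both were called higher too (adjusted p = 0.00343 and 0.0078). Prdx3 was also called higher with DESeq2 (adjusted p = 0.0399), upper-quartile factors (0.0351) and a filter at 5 CPM (0.0334).

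Of the 3 thioredoxin reductases 2 fell, and the cytosolic form was not called. Txnrd3 (chromosome 6, 89643988 to 89675529, plus strand), a reductase with a fused glutaredoxin domain best known from testis, had 27.2, 27.4 and 31.6 CPM in libraries labelled Grp78KO and 57.7, 56.3 and 72.6 CPM in Control. The lowest Control lay far above the highest library labelled Grp78KO, and the log2 fold was -1.12 (SE 0.12, adjusted p = 0.00102). Txnrd2, the mitochondrial reductase, had 11.6, 11.3 and 12.1 CPM against 15.0, 15.2 and 17.6 CPM in Control, separate and called lower (log2 fold -0.45, SE 0.10, adjusted p = 0.0123). That call ended without library 2 labelled Grp78KO (adjusted p = 0.0594) and with library size alone (log2 fold -0.19, adjusted p = 0.274). Txnrd1, the cytosolic reductase, had 199, 200 and 180 CPM against 184, 189 and 167 CPM and was not called (log2 fold 0.10, SE 0.10, adjusted p = 0.468).

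Of the thioredoxins themselves Txn2 was called and Txn1 was not, and the difference between them was not tested. Txn2, the mitochondrial thioredoxin, had 106, 103 and 63.5 CPM in libraries labelled Grp78KO and 66.1, 60.2 and 53.7 CPM in Control. It was called higher although library 3 labelled Grp78KO lay under Control 1 (log2 fold 0.60, SE 0.19, adjusted p = 0.0450). The Txn2 call ended when any one library other than library 3 labelled Grp78KO was left out, with adjusted p of 0.0807 to 0.145, and also with no filter on low counts (adjusted p = 0.0568) and with limma-voom (adjusted p = 0.0577). Txn1, the cytosolic thioredoxin, had the highest level per length of all 55 genes in libraries labelled Grp78KO, 299 ± 19.2 CPM per kilobase against 286 ± 33.8 in Control (SD, n = 3 each), and was not called (log2 fold 0.06, SE 0.12, adjusted p = 0.707).

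Catalase fell and the extracellular superoxide dismutase rose. Cat (chromosome 2, 103453849 to 103485160, minus strand), the peroxisomal enzyme that breaks down hydrogen peroxide, had 436, 446 and 439 CPM in libraries labelled Grp78KO, against 875, 834 and 807 CPM in Control. Both groups were tight and far apart, and the fall was to 0.525 of the Control level (log2 fold -0.93, SE 0.11, adjusted p = 0.00112). Per length Cat was the most abundant member in Control at 321 ± 13.1 CPM per kilobase, against 169 ± 1.95 in libraries labelled Grp78KO (SD, n = 3 each). Sod3 (chromosome 5, 52363791 to 52371418, plus strand), secreted into the extracellular matrix, had 37.3, 39.1 and 23.5 CPM against 13.5, 13.0 and 14.3 CPM in Control, a 2.45-fold rise without overlap (log2 fold 1.29, SE 0.19, adjusted p = 0.00257). Sod1 of the cytosol and Sod2 of mitochondria had log2 folds of -0.06 and -0.04 (adjusted p = 0.791 and 0.774), and both signs flipped with library size alone and with upper-quartile scaling.

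Fibroblast and smooth muscle markers moved in the same direction as Gpx3 and Sod3, secreted proteins that other lung cells also make. The marker sum was 1223, 1319 and 1352 CPM in libraries 1, 2 and 3 labelled Grp78KO and 232, 230 and 586 CPM in Controls 1, 2 and 3. Between Controls it was therefore highest in Control 3, where Sod3 had 14.3 CPM against 13.5 and 13.0 CPM in Controls 1 and 2, and Gpx3 19.3 CPM against 28.5 and 19.7 CPM. Among libraries labelled Grp78KO the marker sum was highest in library 3, where Sod3 and Gpx3 were lowest. Collagen genes made up most of the sum, and they split in library 3. Col1a1 (297, 323 and 404 CPM in libraries 1, 2 and 3 labelled Grp78KO) and Col1a2 (286, 305 and 354 CPM) were highest there. Col3a1 (417, 456 and 405 CPM) was lowest there. The other markers of the list did not move together in library 3 either. All markers of the list are named here after their values were seen. Mfap4 was highest in library 3 (22.8, 24.8 and 30.4 CPM in libraries 1, 2 and 3 labelled Grp78KO), as was Lum (5.93, 5.65 and 6.51 CPM). Pdgfrb lay between the others (6.67, 8.41 and 7.58 CPM). Of these other markers, Acta2, Des, Tagln, Pdgfra, Dcn and Myh11 were lowest in library 3. Acta2 had 20.1, 20.8 and 9.10 CPM in libraries 1, 2 and 3 labelled Grp78KO, Des 11.6, 10.3 and 4.88 CPM, Tagln 15.3, 14.4 and 5.19 CPM, and Pdgfra 24.9, 25.8 and 17.4 CPM. The endothelial marker sum, added here after its values were seen, was 726, 758 and 448 CPM in libraries 1, 2 and 3 labelled Grp78KO. In Controls 1, 2 and 3 it was 468, 471 and 432 CPM. Vwf was the largest part of it, with 356, 379 and 188 CPM in libraries 1, 2 and 3 labelled Grp78KO. Of that list only Kdr was highest in library 3 (63.5, 69.1 and 73.0 CPM), and the others were lowest there. The mesothelial marker sum, also added after its values were seen, was 200, 215 and 181 CPM in these libraries. In Controls 1, 2 and 3 the mesothelial sum was 109, 103 and 115 CPM. The part of fibroblasts, smooth muscle, mesothelial or endothelial cells in the rises was not tested. For Cat, Gstt1, Gstt3 and Txnrd3, which fell, the AT2 marker sum was lower in the same libraries, and its part was not tested either.

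The quinone and haem enzymes are familiar readouts of NRF2, and 1 of 2 was called. Nqo1 (chromosome 8, 107388225 to 107403206, minus strand), a quinone reductase, had 15.6, 14.7 and 11.4 CPM in libraries labelled Grp78KO and 10.5, 8.99 and 6.27 CPM in Control, separate and higher (log2 fold 0.70, SE 0.20, adjusted p = 0.0321). Its call ended without Control 2, Control 3, or library 1 or 2 labelled Grp78KO (adjusted p = 0.0882, 0.0610, 0.102 and 0.0991). Hmox1, which breaks down haem, had 109, 113 and 70.6 CPM against 91.5, 91.5 and 71.4 CPM and was not called (log2 fold 0.20, SE 0.19, adjusted p = 0.433). Without library 3 labelled Grp78KO it was called higher (log2 fold 0.39, adjusted p = 0.0376).

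Promoter windows of 300 bases, 250 before and 50 after the start of transcription, were given by RefSeq for 48 of the 55 genes (GRCm38.p6). They were searched on both strands for the core of the antioxidant response element, TGACNNNGC, to which NRF2 binds with a small MAF protein. It was in the windows of 9 of 48 members (18.8%), Gclm, Gsta3, Gstm5, Gstm7, Mgst1, Prdx1, Sod1, Srxn1 and Txnrd1, beside 16.7% of the 13010 tested genes with a window and 12.4% of all 32851 windows. By call, it was in 3 of 11 members that rose, 0 of 7 that fell and 6 of 27 not called. Windows are shown for contrast, from Gclm and Srxn1, which rose under every setting run, and from Txnrd1, not called in the fit reported. Txnrd1 also holds a match to the core in the window shown, and was called higher with library size alone (log2 fold 0.35, adjusted p = 0.0122). The letters at the N positions differ between these genes. Relative to the start site the match begins at -134 in Gclm, at -92 in Txnrd1 and at 28, past the start, in Srxn1. Capitals mark the match, here read on the opposite strand.
Gclm (chr3:122245307-122245606, plus strand): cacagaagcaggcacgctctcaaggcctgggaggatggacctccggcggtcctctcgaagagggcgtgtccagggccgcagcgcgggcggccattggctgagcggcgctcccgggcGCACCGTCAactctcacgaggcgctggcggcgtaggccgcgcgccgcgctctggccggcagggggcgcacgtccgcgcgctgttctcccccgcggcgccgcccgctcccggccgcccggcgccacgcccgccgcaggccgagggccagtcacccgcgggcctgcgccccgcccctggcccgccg
Srxn1 (chr2:152105274-152105573, plus strand): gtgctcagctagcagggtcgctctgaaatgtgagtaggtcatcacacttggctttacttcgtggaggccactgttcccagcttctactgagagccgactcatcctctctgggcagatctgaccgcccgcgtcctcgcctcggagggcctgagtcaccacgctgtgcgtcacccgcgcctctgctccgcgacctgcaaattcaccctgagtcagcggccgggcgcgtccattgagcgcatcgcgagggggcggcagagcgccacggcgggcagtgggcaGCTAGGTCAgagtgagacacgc
Txnrd1 (chr10:82858956-82859255, plus strand): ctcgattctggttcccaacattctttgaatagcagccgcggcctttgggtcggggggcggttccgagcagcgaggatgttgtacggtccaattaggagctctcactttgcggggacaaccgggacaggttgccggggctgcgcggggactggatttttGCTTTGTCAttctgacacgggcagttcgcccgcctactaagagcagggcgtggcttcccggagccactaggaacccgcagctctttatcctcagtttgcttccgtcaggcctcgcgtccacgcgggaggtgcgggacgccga
The AP-1 core TGANTCA was in 6 of 48 windows (12.5%, beside 7% of tested genes), those of Gstm5, Gstp1, Gstp2, Mgst2, Prdx1 and Srxn1. In Prdx1 the run TGACTCAGC holds both cores at once. The C/EBP-ATF response element TGATGNAA was in 0 of 48 windows (2.86% of tested genes) and the ER stress element, CCAAT and CCACG with 9 bases between, in 0 of 48 (0.154%). These matches describe the letters of a short window only.

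The genes connected to these systems were read from 6 lists, 85 genes in all, of which 84 were tested, 18 rose and 19 fell, with a median log2 fold of 0.05. Over all genes 18% rose and 18.8% fell, and the counts of each list are read beside those shares. With library size alone 40 connected genes were called higher and 9 lower, so the balance of directions depends on scaling. Cystine supply held the largest log2 fold among the named genes, though that of Aldh1l2, given below, was close to it. Slc7a11 (chromosome 3, 49892526 to 50443614, minus strand), the cystine importer that feeds glutathione synthesis, had 179, 179 and 98.4 CPM in libraries labelled Grp78KO and 7.88, 8.56 and 2.76 CPM in Control. The groups were far apart (log2 fold 4.57, SE 0.48, adjusted p = 0.00111). Slc3a2 of the same list had 845, 827 and 493 CPM against 299, 290 and 173 CPM, without overlap (log2 fold 1.51, SE 0.28, adjusted p = 0.00592). Chac1, which degrades glutathione inside the cell, rose as well, at 70.3, 66.6 and 23.8 CPM against 11.2, 10.2 and 1.63 CPM (log2 fold 2.80, SE 0.72, adjusted p = 0.0229). The Chac1 call ended without Control 2 or without library 1 or 2 labelled Grp78KO (adjusted p = 0.0607, 0.0892 and 0.0660) and with no filter on low counts (adjusted p = 0.119). Of the 20 genes of cystine supply and glutathione turnover 5 rose and 5 fell. Enzymes that take glutathione apart at the cell surface moved in both directions. Anpep, an aminopeptidase, had 113, 121 and 178 CPM against 422, 437 and 491 CPM (log2 fold -1.71, adjusted p = 0.000964), and Ggt5 had 24.6, 23.0 and 23.6 CPM against 52.7, 49.2 and 50.7 CPM (log2 fold -1.10, adjusted p = 0.000382). Of the other gamma-glutamyltransferases in the list, Ggt6 (log2 fold 0.61, adjusted p = 0.00352) and Ggt1 rose, and Ggt7 was not called (log2 fold -0.02, adjusted p = 0.949). Ggt1, a cell-surface enzyme, had 3.86, 3.21 and 1.78 CPM against 1.28, 0.879 and 0.720 CPM, without overlap (log2 fold 1.62, SE 0.34, adjusted p = 0.0102). Slc3a2, Ggt1 and Ggt7 are named here after their values were seen, and none of them was followed under the other settings.

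The control of NRF2 showed 2 of 10 genes higher and 2 lower. Nfe2l2, the gene for NRF2, had 226, 238 and 226 CPM in libraries labelled Grp78KO and 340, 329 and 224 CPM in Control and was not called (log2 fold -0.37, SE 0.16, adjusted p = 0.111), though it was called lower without Control 3 (log2 fold -0.55, adjusted p = 0.00922). Keap1 had 86.3, 84.6 and 72.1 CPM against 81.9, 81.6 and 75.1 CPM (log2 fold 0.03, adjusted p = 0.852). Bach1, a repressor of the same sites, fell, with 37.7, 43.9 and 53.4 CPM against 72.4, 80.1 and 89.3 CPM (log2 fold -0.84, SE 0.14, adjusted p = 0.00449). Sqstm1, an autophagy adaptor that binds KEAP1, rose (1027, 1000 and 582 CPM against 451, 447 and 359 CPM, log2 fold 1.05, adjusted p = 0.0111), as did the small MAF gene Mafk (163, 161 and 80.2 CPM against 60.8, 70.8 and 58.7 CPM, log2 fold 1.09, adjusted p = 0.0155). Cul3, the ligase scaffold that works with KEAP1, fell slightly (log2 fold -0.35, adjusted p = 0.0251). Leaving out library 1 or 2 labelled Grp78KO or Control 1 ended both of these calls, as did leaving out Control 3 for Mafk (adjusted p = 0.0559 to 0.0619) and Control 2 for Cul3 (0.0610 to 0.101). Cul3 was also not called with library size alone (log2 fold -0.09, adjusted p = 0.535).

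In the list for NADPH, the electron source of both systems, 3 of 14 genes rose and 6 fell. The formyltetrahydrofolate dehydrogenases, which yield NADPH, moved in opposite directions: Aldh1l2, the mitochondrial one, had 71.9, 73.8 and 30.5 CPM in libraries labelled Grp78KO and 2.65, 2.25 and 2.98 CPM in Control (log2 fold 4.48, SE 0.37, adjusted p = 0.000624), whereas Aldh1l1 in the cytosol had 29.3, 28.6 and 35.8 CPM against 90.6, 87.9 and 82.1 CPM (log2 fold -1.48, SE 0.11, adjusted p = 0.000407). Tkt, a transketolase of the pentose phosphate pathway, and Nadk, the kinase that makes NADP from NAD, fell (log2 folds -0.51 and -0.54, adjusted p = 0.00740 and 0.00482). The fall of Nadk was not called with library size alone (log2 fold -0.28, adjusted p = 0.0634).

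Selenium handling had 1 of 9 genes higher and 2 lower. Selenop, the secreted selenium carrier, had 366, 364 and 538 CPM in libraries labelled Grp78KO and 1442, 1236 and 1123 CPM in Control, separate and lower (log2 fold -1.58, SE 0.19, adjusted p = 0.00139). Lrp8, a receptor for that carrier, rose at a low level, with 5.73, 5.63 and 2.64 CPM against 0.526, 0.820 and 0.743 CPM (log2 fold 2.74, SE 0.34, adjusted p = 0.00151). Sepsecs, which makes the selenocysteine transfer RNA, fell (log2 fold -0.53, adjusted p = 0.00592), though not with library size alone (log2 fold -0.27, adjusted p = 0.130). Eefsec, the elongation factor that delivers it, was just short of the threshold (log2 fold 0.39, adjusted p = 0.0508) and was called higher without library 3 labelled Grp78KO (log2 fold 0.51, adjusted p = 0.00284). It was also called higher with DESeq2 (adjusted p = 0.0206), the other scalings (0.00732 to 0.0415), a filter at 5 CPM (0.0302) and halved counts (0.0466).

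Among glutaredoxins, thioredoxin relatives and methionine sulfoxide reductases 4 of 16 rose and 2 fell. Msrb2, a mitochondrial methionine sulfoxide reductase, had 15.9, 15.9 and 19.2 CPM in libraries labelled Grp78KO and 29.5, 24.2 and 29.4 CPM in Control (log2 fold -0.70, SE 0.12, adjusted p = 0.00488). Glrx, the cytosolic glutaredoxin, fell (log2 fold -0.36, adjusted p = 0.0225), while Glrx3 and Txnl4a rose (log2 folds 0.66 and 0.68, adjusted p = 0.0205 and 0.0266). These 3 calls ended without library 1 or 2 labelled Grp78KO or Control 2, and also without Control 1 for Glrx (adjusted p = 0.0581 to 0.0749) and without Control 3 for Glrx3 (0.0678 to 0.0777) and Txnl4a (0.0725 to 0.0912). Glrx was not called with library size alone (log2 fold -0.10, adjusted p = 0.347). Txnip, the thioredoxin-binding protein, had 483, 469 and 659 CPM against 558, 572 and 613 CPM and was not called (log2 fold -0.11, adjusted p = 0.596), though it was called lower without library 3 labelled Grp78KO (log2 fold -0.29, adjusted p = 0.0425). Of the 15 tested genes of iron, haem and detoxification 3 rose and 2 fell. Ephx1, an epoxide hydrolase, had 330, 330 and 240 CPM against 218, 202 and 158 CPM (log2 fold 0.64, adjusted p = 0.0240), a call that ended without Control 2, Control 3, or library 1 or 2 labelled Grp78KO (adjusted p = 0.0653 to 0.0879). The conjugate exporters diverged, Abcc4 higher (log2 fold 0.41, adjusted p = 0.00732) and Abcc3 lower (log2 fold -0.65, adjusted p = 0.00307), and the oxidase Aox1 fell (log2 fold -0.78, adjusted p = 0.00117).

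**Figure D4:**
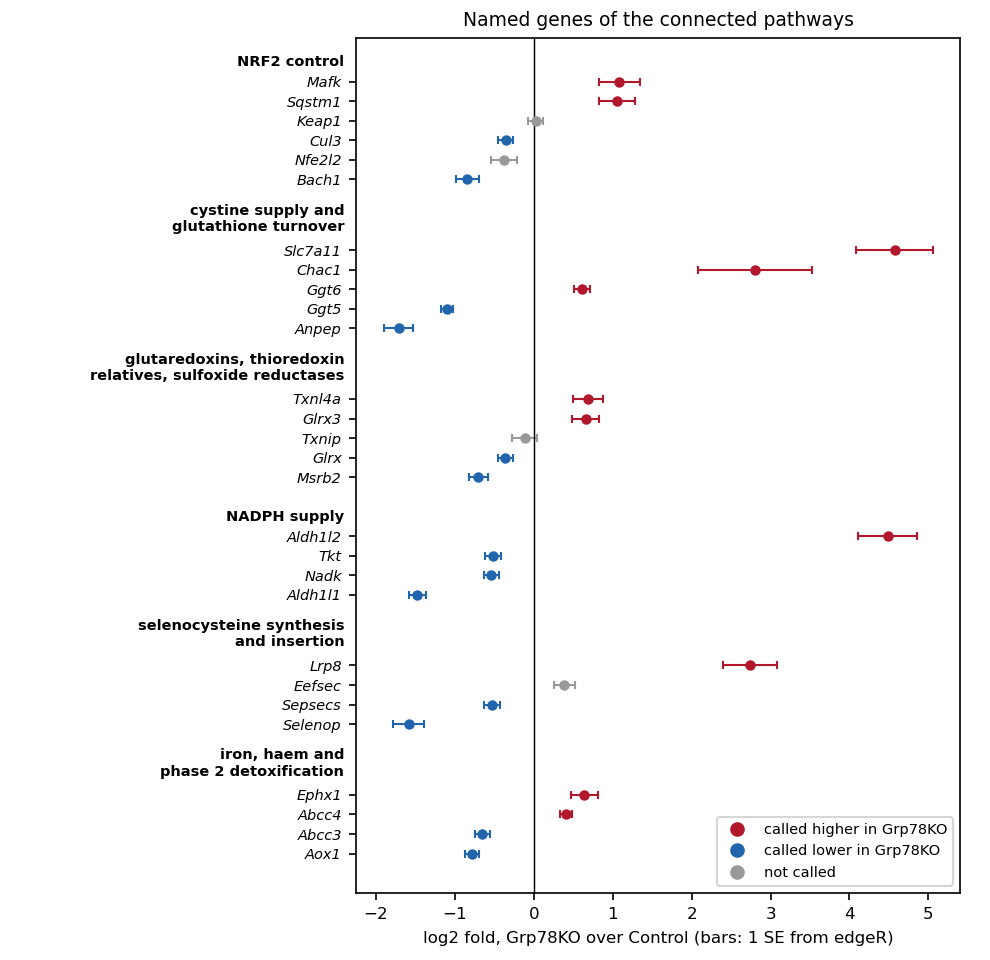
Log2 fold of the named genes of the 6 connected lists, libraries labelled Grp78KO over Control, with bars of 1 SE and marked by call. Slc7a11 and Aldh1l2 stand farthest to the right at 4.57 and 4.48, and Anpep and Selenop farthest to the left at -1.71 and -1.58.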

How the data were processed

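Raw counts per gene were deposited by the authors as a single table. The submitters' processing notes name mm10 and edgeR 3.7; the aligner and counter are not given in the sources used. In every library counts of 2 outnumbered counts of 1 by 1.63 to 1.76 times, so mates of a read pair may have been counted separately, and counting error is then larger than the counts imply. Strand is not stated for the kit, so reads of overlapping or antisense genes are not separated. Counts were analysed in R 4.3.3 with edgeR 4.0.16 (filterByExpr, TMM, robust quasi-likelihood F test, group as the only term) over 18849 genes, with Benjamini-Hochberg adjustment over all of them. The common biological coefficient of variation was 22.3%. To obtain each SE, the log2 fold was divided by the root of F. Levels per length use exon lengths from GENCODE M21. The alternatives were DESeq2 1.42.0, limma-voom (limma 3.58.1), other scalings and filters, halved counts, the replicate block and left-out libraries. Every 2 libraries of a group differed by more than sampling noise (chi-square 7.98 to 166 per gene). Deviations from the group means correlated at 0.350, 0.200 and 0.329 between same-numbered libraries and at -0.350 to 0.171 between others. The numbers come from the sample titles, and the labels do not say what they mark. As all 3 correlations passed 0.1, the fit with the replicate block is given beside results whose call it changes. Libraries numbered 1 and 2 of opposite groups passed 0.1 as well (0.171 and 0.154), so pairing by number is not established for them.

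All members are accounted for. Of each connected list the 4 genes with the lowest adjusted p are named, with Nfe2l2, Keap1, Bach1, Slc7a11, Chac1 and Txnip whatever their values. The members and lists were chosen with earlier results of these data known. The scripts were tested on simulated data with few changed genes, equally up and down, and independent libraries. That test cannot decide on scaling or pairing.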

Additional observations from a re-analysis of the deposited data

How the results depend on the processing

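Of the members, 13 were called higher and 7 lower in the fit reported; of the connected genes, 18 and 19. With library size alone these were 29 and 4, and 40 and 9, and 82.2% of all calls were higher. With the replicate block they were 21 and 11, and 23 and 23; the 12 members it added stand beside their results, and it changed no other member's call. Without both libraries numbered 3 they were 24 and 15, and 32 and 27, and 10581 genes were called in all, against 6938. Leaving out each library in turn gave 8 to 21 and 5 to 12 members, 8 to 31 and 13 to 22 connected genes, and 3706 to 8548 genes in all; the lowest total came without Control 2 and the highest without library 3 labelled Grp78KO. DESeq2 gave 17 and 8 members. Log2 folds near 0 changed sign with upper-quartile factors (Gstt2 0.026, Sod1 0.011, Sod2 0.034) and with library size alone (Gsta4 0.021, Gstm2 0.066, Gstt2 0.21, Gstz1 0.17, Prdx2 0.13, Sod1 0.19, Sod2 0.22, Txnip 0.15). Over the fits that left out 1 library each, folds that took both signs ran from -0.11 to 0.10 for Gstm1, -0.035 to 0.32 for Gstm3, -0.11 to 0.039 for Gstt2, -0.0090 to 0.23 for Prdx1, -0.19 to 0.062 for Sod1, -0.13 to 0.0078 for Sod2, -0.022 to 0.14 for Txn1 and -0.022 to 0.10 for Keap1. Without both libraries numbered 3 the fold of Gstm1 was -0.047, and summing Gsta1 with Gsta2 turned Gsta2 to 0.51. No called member reversed in the planned settings. Where a single choice moved a call, the cause was not tested.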
